A study of Mus musculus with 180 samples.

Results

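The host genes of small nucleolar RNAs (snoRNAs) Gas5, Snhg1, Snhg3, Snhg5, Snhg6, Snhg8, Snhg12, Snhg15 and Zfas1, were followed across clinical kinase inhibitors (CKIs) in LPS-stimulated macrophages. They were taken by their gene symbols, 9 of the 45070 genes in the table, and each symbol matched 1 entry. The cells were wild type bone marrow-derived macrophages (BMDM), grown from mouse bone marrow. Every culture received either a single CKI, of 58 in all, or the solvent DMSO 1 h ahead of a 2 h stimulation with 10 ng/ml LPS, a bacterial cell wall component sensed by TLR4. There were 3 samples for each CKI and 6 for DMSO, in 2 sets of 3 (DMSOs1 and DMSOs2), so 180 in all. The methods describe independent biological replicates from male C57/BL6 mice, and all samples used here received LPS. Each CKI was used at its own concentration, set by its binding to its intended target, so CKIs are set side by side below without comparing their potency.

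A snoRNA host gene is transcribed and spliced, and the snoRNAs are cut out of its introns. They guide the chemical modification of ribosomal RNA: box C/D snoRNAs (Snord) guide ribose methylation, and box H/ACA snoRNAs (Snora) guide pseudouridylation. The spliced host RNA codes for no conserved protein, yet ribosomes engage its short reading frames, and host RNAs of this kind are known targets of nonsense-mediated decay (NMD), which removes RNAs on which translation stops early. Many of these RNAs begin with a terminal oligopyrimidine (TOP) tract, a C followed by a run of C and T, through which the kinase mTOR, downstream of PI3K and AKT, promotes translation. The comparison asked how the level of these RNAs differed with inhibitors of mTOR, PI3K and AKT, and with the other CKIs.

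The starts of these RNAs are shown because the TOP tract is the feature they are known to share with ribosomal protein genes. Each line gives 10 bases before the annotated start and 20 bases from it on, in RefSeq annotation on GRCm38.p6 (mm10), 5′ to 3′ on the strand of the gene. Capitals mark the longest run of C and T that begins with C and has at least 5 bases.
Gas5: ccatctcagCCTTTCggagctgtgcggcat
Snhg8: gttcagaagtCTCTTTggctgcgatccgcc
Snhg12: ttctcagtCCTTTCTCgcttcatccgcggt
Snhg3: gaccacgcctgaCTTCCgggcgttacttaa
Snhg5: gcggtgaaccgggctcgttCTTTTacgacg
Snhg1: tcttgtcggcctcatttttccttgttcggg
Snhg15: ctgtgaccgtaactttaagcacacgtgagc
Zfas1: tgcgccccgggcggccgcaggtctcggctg

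The windows lie at chr1:161035156-161035185 for Gas5, chr3:123508317-123508346 for Snhg8, chr4:132308668-132308697 for Snhg12, chr4:132353667-132353696 for Snhg3, chr9:88522878-88522907 for Snhg5, chr19:8723477-8723506 for Snhg1, chr11:6528741-6528770 for Snhg15 and chr2:167062924-167062953 for Zfas1. Gas5, Snhg1, Snhg12 and Zfas1 are on the plus strand and the others on the minus strand. The promoter table holds 8 of the 9 genes. Snhg6 has no entry. For Gas5 it gives 2 starts, of which the second is shown, and the first, at position 161034601, has no such run. A run of at least 5 bases within 25 bases of the start was found in 5 of these 8 genes, on the strand of the gene only. It began at the annotated start itself in Snhg8, 1 base before it in Gas5, 2 bases before it in Snhg12, 2 bases after it in Snhg3 and 9 bases after it in Snhg5. Of all 27025 genes in the table, 56.8% hold such a run, so these letters alone do not set the host genes apart.

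In the DMSO samples the host RNAs were present at low to moderate levels. Per kilobase of exon, the normalized value was highest for Snhg8 with 164 ± 55 (SD, n = 6), followed by Snhg3 with 147 ± 59.7, Snhg6 with 143 ± 22.9, Gas5 with 135 ± 73.9 and Zfas1 with 105 ± 32.9. Neighbours in this order differed by less than their spread. Snhg15 followed with 58.8 ± 12.2, below Zfas1 by more than either SD. Snhg1 with 17.2 ± 11.0, Snhg5 with 16.2 ± 3.58 and Snhg12 with 10.7 ± 3.58 were lowest and again differed from each other by less than their spread. Genes were tested if their mean over the 180 samples reached 10, which held for 12714 genes and for all 9 host genes. Of the 9, 2 passed through the mTOR inhibitors with which they were high. Snhg12 had a mean of 10.02, and 8.54 without the BGT226 samples. Snhg1 had a mean of 11.7, and 9.24 without the 5 mTOR inhibitors. Their values are given as a description, and counts are also given over the 7 other genes.

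The values are those of polyadenylated host RNA, not of the snoRNAs. The 30 snoRNA entries inside the 9 genes had mean values of at most 4.22, so the snoRNAs themselves are not described. On the opposite strand, the first 249 bases of Gas5 overlap Zbtb37 and the first 82 bases of Zfas1 overlap Znfx1, and whether reads were counted by strand is not given in the sources used here, so reads there cannot be assigned to one gene with certainty. Znfx1 had a mean of 4183, against 122 for Zfas1. With BGT226 its Log2FC against DMSO was 0.31 ± 0.24 (SE, adjusted p = 0.338), and that of Zbtb37 was 0.36 ± 0.27 (adjusted p = 0.326). Neither was called with any of the 5 mTOR inhibitors described next. Against the other CKIs, the contrast in which Gas5 is reported as higher further on, Zbtb37 was higher by 0.41 ± 0.10 (adjusted p = 0.000525) and Znfx1 was not called (-0.02, adjusted p = 0.86). The part of Zbtb37 reads in the Gas5 values was not tested.

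All 7 macrophage markers (Adgre1, Csf1r, Cd68, Itgam, Fcgr1, Lyz2 and Mertk) had means of at least 10, with summed values of 71409 to 211689. None of the 8 T cell, B cell and erythroid markers did, and no such list summed to more than 5 in any sample. The neutrophil precursor list (Ngp, Ltf, Camp, Elane) summed to 132 to 491 with DMSO and 109 to 874 with CKIs, and the fibroblast list (Col1a1, Col1a2, Col3a1) to 19 to 147 and 3 to 222. Of these lists, 4 of 4 and 2 of 3 markers had means of at least 10. No marker of any list was at 0 in all samples, and the part of other cells in the results was not tested. In bulk RNA, fewer cells and less RNA per cell cannot be told apart, and the values are relative to genes that the authors took as invariant.

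Against DMSO, 55 of the 522 pairs of a host gene and a CKI were called higher and 0 lower (limma, adjusted p under 0.05; 1 pair was lower at an unadjusted p under 0.05). That is 10.5% of the pairs, beside 2.52% of all pairs of a gene and a CKI that were called higher. The 5 CKIs annotated to mTOR accounted for 31 of the 55 calls, which is 68.9% of their 45 pairs, beside 13.8% over all genes with these CKIs. Without Snhg1 and Snhg12 it was 26 of 35 pairs. These 5 are BGT226, Omipalisib, PF04691502, AZD2014 and Apitolisib, all of which also inhibit PI3K except AZD2014. All comparisons share the same 6 DMSO samples.

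BGT226 raised 8 of the 9 host RNAs (24.1% of all genes were called higher), and Omipalisib also raised 8 (17.5%). PF04691502 raised 6 (8.86%), Apitolisib 5 (12.7%) and AZD2014 4 (6.06%). The median Log2FC of the 9 genes was 2.64 with BGT226, 1.99 with Omipalisib, 1.11 with PF04691502, 0.94 with AZD2014 and 0.83 with Apitolisib. The medians over all genes tested were 0.21, 0.12, 0.10, -0.02 and 0.11 in the same order. Gas5 and Zfas1 were called with all 5 of these CKIs, while no other host RNA was. Without Snhg1 and Snhg12, BGT226 raised 6 of 7, Omipalisib 6, PF04691502 5, Apitolisib 5 and AZD2014 4. The median Log2FC of these 7 genes was 2.30, 1.76, 1.05, 0.98 and 0.94 in the same order.

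**Figure D1:**
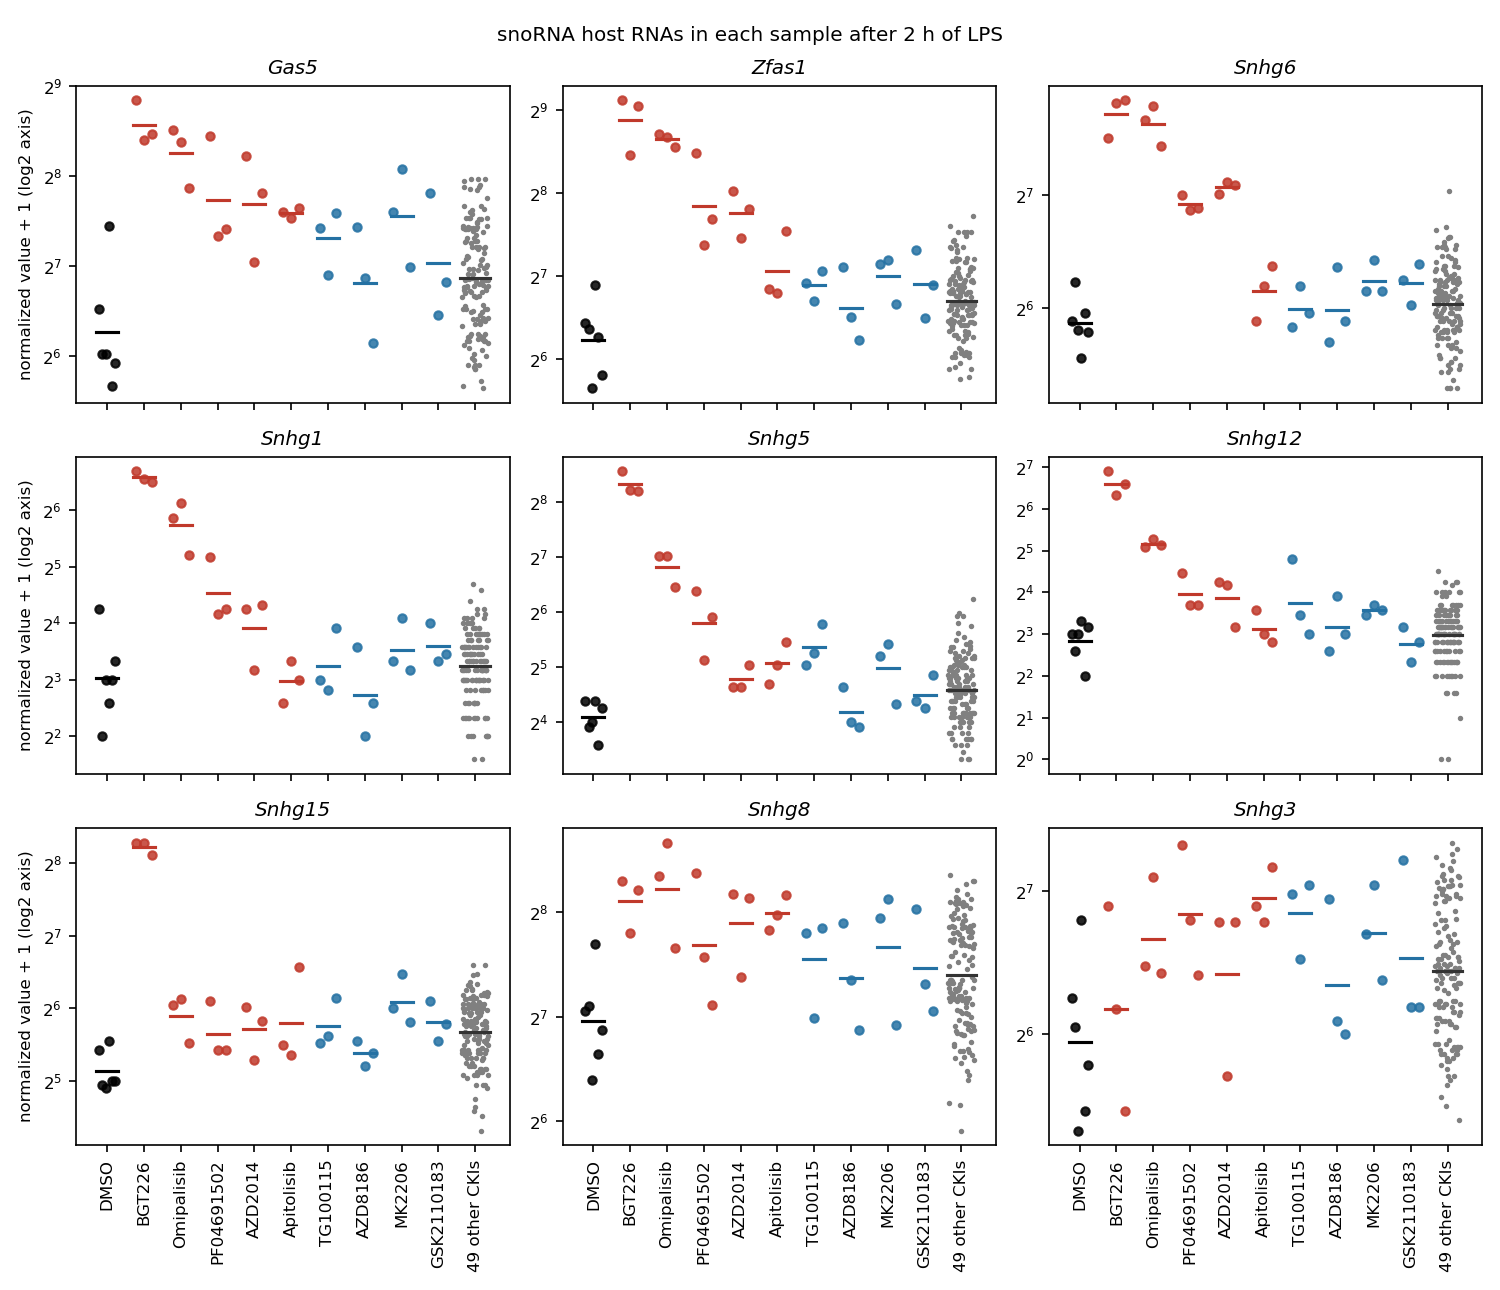
Normalized value + 1 of each host RNA on a log2 axis, with 1 point per sample and a bar at the mean of the log2 values; black is DMSO (6 samples), red the 5 mTOR inhibitors, blue the 4 PI3K or AKT inhibitors (3 samples each) and grey the samples of 49 other CKIs. All 3 BGT226 samples lie above every DMSO sample for each gene except Snhg3.

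Gas5, known for accumulating in growth-arrested cells, hosts a series of box C/D snoRNAs, Snord47 among them. Among the 6 DMSO samples it ran from 50 to 173, the median being 64, in normalized values. It was 458, 338 and 353 with BGT226, 365, 332 and 233 with Omipalisib and 347, 161 and 170 with PF04691502. With AZD2014 the values were 298, 131 and 224, and with Apitolisib they were 194, 184 and 200. The samples of BGT226, Omipalisib and Apitolisib lay above every DMSO sample, whereas PF04691502 and AZD2014 overlapped the highest one, DMSOs2 replicate 1. The Log2FC was 2.30 ± 0.39 (SE) with BGT226 (adjusted p = 7.87e-07) and 1.99 ± 0.39 with Omipalisib (adjusted p = 3.39e-05). With the other 3 it lay between 1.33 and 1.46, with adjusted p-values of 0.00437 to 0.0221.

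Zfas1, which hosts Snord12 and its relatives and starts head to head with Znfx1, ran from 49 to 117 with DMSO, with a median of 78.5. It was 552, 350 and 526 with BGT226, 417, 406 and 375 with Omipalisib and 355, 164 and 204 with PF04691502. With AZD2014 the values were 259, 175 and 222, and with Apitolisib they were 114, 110 and 185. Only the Apitolisib samples overlapped those of DMSO among these CKIs. The Log2FC was 2.64 ± 0.29 with BGT226 (adjusted p = 1.01e-13), 2.41 ± 0.29 with Omipalisib (adjusted p = 1.04e-11), 1.61 ± 0.29 with PF04691502 (adjusted p = 1.88e-05), 1.53 ± 0.29 with AZD2014 (adjusted p = 1.31e-05) and 0.83 ± 0.29 with Apitolisib (adjusted p = 0.0386).

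Snhg6, the host of Snord87, had the smallest standard error of the 9 genes. It ran from 46 to 74 with DMSO, with a median of 56.5. It was 181, 225 and 228 with BGT226, 202, 220 and 172 with Omipalisib, 127, 116 and 117 with PF04691502, 128, 138 and 135 with AZD2014, and 58, 72 and 82 with Apitolisib. The first 4 CKIs were separate from DMSO in every sample, and Apitolisib was not. The Log2FC was 1.85 ± 0.20 with BGT226 (adjusted p = 3.02e-14), 1.76 ± 0.20 with Omipalisib (adjusted p = 6.21e-13), 1.20 ± 0.20 with AZD2014 (adjusted p = 5.03e-07), 1.05 ± 0.20 with PF04691502 (adjusted p = 5.07e-05) and 0.28 ± 0.20 with Apitolisib (adjusted p = 0.317).

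Snhg1, the host of Snord22 and 7 further snoRNA entries, and Snhg5, the host of 2 snoRNA entries, were scarce with DMSO. Snhg1 ran from 3 to 18 with DMSO, with a median of 7, and was 102, 93 and 90 with BGT226, 57, 69 and 36 with Omipalisib and 35, 17 and 18 with PF04691502. BGT226 and Omipalisib lay above every DMSO sample, while PF04691502 overlapped the highest one. Its Log2FC was 3.56 ± 0.40 with BGT226, 2.71 ± 0.40 with Omipalisib and 1.5 ± 0.40 with PF04691502, whereas AZD2014 (0.89) and Apitolisib (-0.06) did not pass. In the fit of 30850 genes without the filter, its adjusted p was 1.55e-12 with BGT226, 7.86e-08 with Omipalisib and 0.0121 with PF04691502. Snhg5 ran from 11 to 20 with DMSO, with a median of 16.5, and was 375, 298 and 293 with BGT226, 128, 128 and 87 with Omipalisib and 82, 34 and 59 with PF04691502. It was 24, 24 and 32 with AZD2014 and 25, 32 and 43 with Apitolisib, so that every sample of the 5 CKIs exceeded every DMSO sample. Its Log2FC of 4.24 ± 0.35 with BGT226 (adjusted p = 8.2e-21), or 18.9-fold, was the largest of all 522 pairs. It was 2.74 ± 0.35 with Omipalisib (adjusted p = 9.3e-11), 1.72 ± 0.35 with PF04691502 (adjusted p = 0.000181), 0.98 ± 0.35 with Apitolisib (adjusted p = 0.0408) and 0.69 ± 0.35 with AZD2014 (adjusted p = 0.159).

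Among the hosts of box H/ACA snoRNAs, Snhg12 (Snora16a, Snora44, Snora61 and also Snord99) was the scarcest of the 9 genes with DMSO. It ran from 3 to 9 with DMSO, with a median of 7, and was 118, 79 and 95 with BGT226 and 33, 38 and 34 with Omipalisib. It was 21, 12 and 12 with PF04691502 and 18, 17 and 8 with AZD2014. BGT226, Omipalisib and PF04691502 were separate from DMSO. Its Log2FC was 3.75 ± 0.44 with BGT226 and 2.32 ± 0.44 with Omipalisib, and those of PF04691502 (1.11) and AZD2014 (1.02) did not pass. Since the BGT226 samples carried it past the filter, the p-values given are those of the fit of 30850 genes without that filter, in which the adjusted p was 1.49e-11 with BGT226 and 4.4e-05 with Omipalisib.

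Snhg15, which holds 1 snoRNA entry, stood out with BGT226. It ran from 29 to 46 with DMSO, with a median of 31, and was 309, 310 and 275 with BGT226. The other mTOR inhibitors gave 65, 69 and 45 (Omipalisib), 68, 42 and 42 (PF04691502), 64, 38 and 56 (AZD2014) and 44, 40 and 94 (Apitolisib), which all overlapped DMSO. The Log2FC was 3.08 ± 0.29 with BGT226 (adjusted p = 3.62e-17) and 0.76 ± 0.29 with Omipalisib (adjusted p = 0.0411), and the other 3 lay between 0.51 and 0.67 without passing. Among all 53 other CKIs the highest single sample was 96.

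Snhg8, the host of Snora24, ran from 83 to 207 with DMSO, with a median of 124. It was 315, 222 and 296 with BGT226, 325, 406 and 201 with Omipalisib, 332, 189 and 137 with PF04691502, 288, 166 and 280 with AZD2014, and 227, 251 and 287 with Apitolisib. BGT226 and Apitolisib were separate from DMSO, and the others overlapped the DMSO range. The Log2FC was 1.27 ± 0.34 with Omipalisib (adjusted p = 0.00313), 1.15 ± 0.34 with BGT226 (adjusted p = 0.00608), 1.03 ± 0.34 with Apitolisib (adjusted p = 0.0324), 0.94 ± 0.34 with AZD2014 (adjusted p = 0.0407) and 0.73 ± 0.34 with PF04691502 (adjusted p = 0.138).

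Snhg3, the host of Snora73a and Snora73b, which act in the processing of ribosomal RNA, gave a different order. It ran from 39 to 110 with DMSO, with a median of 59.5, and was 118, 71 and 43 with BGT226 and 88, 136 and 85 with Omipalisib. It was 159, 110 and 84 with PF04691502, 109, 51 and 109 with AZD2014 and 118, 109 and 143 with Apitolisib. Each of the 5 CKIs overlapped DMSO. Its Log2FC was 0.23 ± 0.31 with BGT226 (adjusted p = 0.609), the lowest among the 9 genes, and 0.73 ± 0.31 with Omipalisib (adjusted p = 0.0735). It was called with Apitolisib (1.01 ± 0.31, adjusted p = 0.0249) and PF04691502 (0.90 ± 0.31, adjusted p = 0.0412).

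The PI3K inhibitors AZD8186 and TG100115 and the AKT inhibitors MK2206 and GSK2110183 raised none of the 9 host RNAs at an adjusted p under 0.05 in limma's test, beside 0%, 0.0236%, 0.983% and 0% of all genes. At an unadjusted p under 0.05, 0 host RNAs were higher with AZD8186, 6 with TG100115, 6 with MK2206 and 2 with GSK2110183, and none was lower. The share of all genes at this unadjusted threshold is not given here, so these counts cannot be set against it. The median Log2FC of the 9 genes was 0.32 with AZD8186, 0.57 with GSK2110183, 0.66 with TG100115 and 0.77 with MK2206. The largest Log2FC values were those of Gas5 with MK2206 (193, 270 and 126; Log2FC 1.29 ± 0.39, adjusted p = 0.0562) and of Snhg5 with TG100115 (32, 37 and 54; Log2FC 1.27 ± 0.35, adjusted p = 0.0557). All 3 TG100115 samples of Snhg5 exceeded the DMSO samples, while those of Gas5 with MK2206 overlapped them. Without DMSOs2 replicate 1, 3 host RNAs were called with TG100115 and 4 with MK2206, beside 10.1% and 8.56% of all genes, so these counts of 0 depended on that library, and the share of all genes called rose with them. The mitochondrial share, described further on, was 2.62% with TG100115 and 2.53% with MK2206, and 1.15% on average with DMSO.

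Outside this pathway, Lapatinib, an inhibitor of EGFR and ERBB2, raised 6 host RNAs (18.1% of all genes were called higher), and Afatinib, an EGFR inhibitor, raised 4 (9.06%). The MEK inhibitor Pimasertib raised 4 (16%), the JAK inhibitor Tofacitinib 3 (9.02%) and the VEGF receptor inhibitor Lenvatinib 3 (11.4%). Snhg3, Snhg8 and Zfas1 were each called with 4 of these 5 CKIs and Gas5 with 3, whereas Snhg1 and Snhg12 were called with none of them. Snhg3 reached its highest mean of all conditions with Lapatinib, with values of 144, 137 and 127 (Log2FC 1.15 ± 0.31, adjusted p = 0.0092). All 3 exceeded the highest DMSO sample of 110. Snhg6, in contrast, was lowest of all conditions with Pimasertib (38, 38 and 61; Log2FC -0.36, not called).

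A single host RNA rose with each of 4 further CKIs. Snhg15 rose with Midostaurin (75, 69 and 96; Log2FC 1.19 ± 0.29, adjusted p = 0.00426), a multi-kinase inhibitor whose annotation includes AKT, with Momelotinib (1.11 ± 0.29, adjusted p = 0.0321) and with Filgotinib (0.99 ± 0.29, adjusted p = 0.00815). Snhg6 rose with the p38 inhibitor PH797804 (0.84 ± 0.20, adjusted p = 0.00547). The shares of all genes called higher were 2.63% with Midostaurin, 0.378% with Momelotinib, 6.1% with Filgotinib and 0.731% with PH797804. With the remaining 44 CKIs, the PI3K and AKT inhibitors above included, no host RNA was called.

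No host RNA was called lower than with DMSO at its lowest level. Gas5 (mean 74.3, Log2FC -0.08) and Snhg3 (55, -0.14) were lowest with NMS1286937, Snhg5 (11.7, -0.45) and Snhg8 (106, -0.31) with Neratinib and Zfas1 (71.3, -0.10) with Tanzisertib. Snhg1 was lowest with GDC0994 (4, -0.72) and Snhg12 with ONO4059analogue (3.33, -1.14). None of these passed the test, with adjusted p-values of at least 0.752. The highest mean was that with BGT226 for each gene except Snhg3, with Lapatinib, and Snhg8, with Omipalisib (311).

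**Figure D2:**
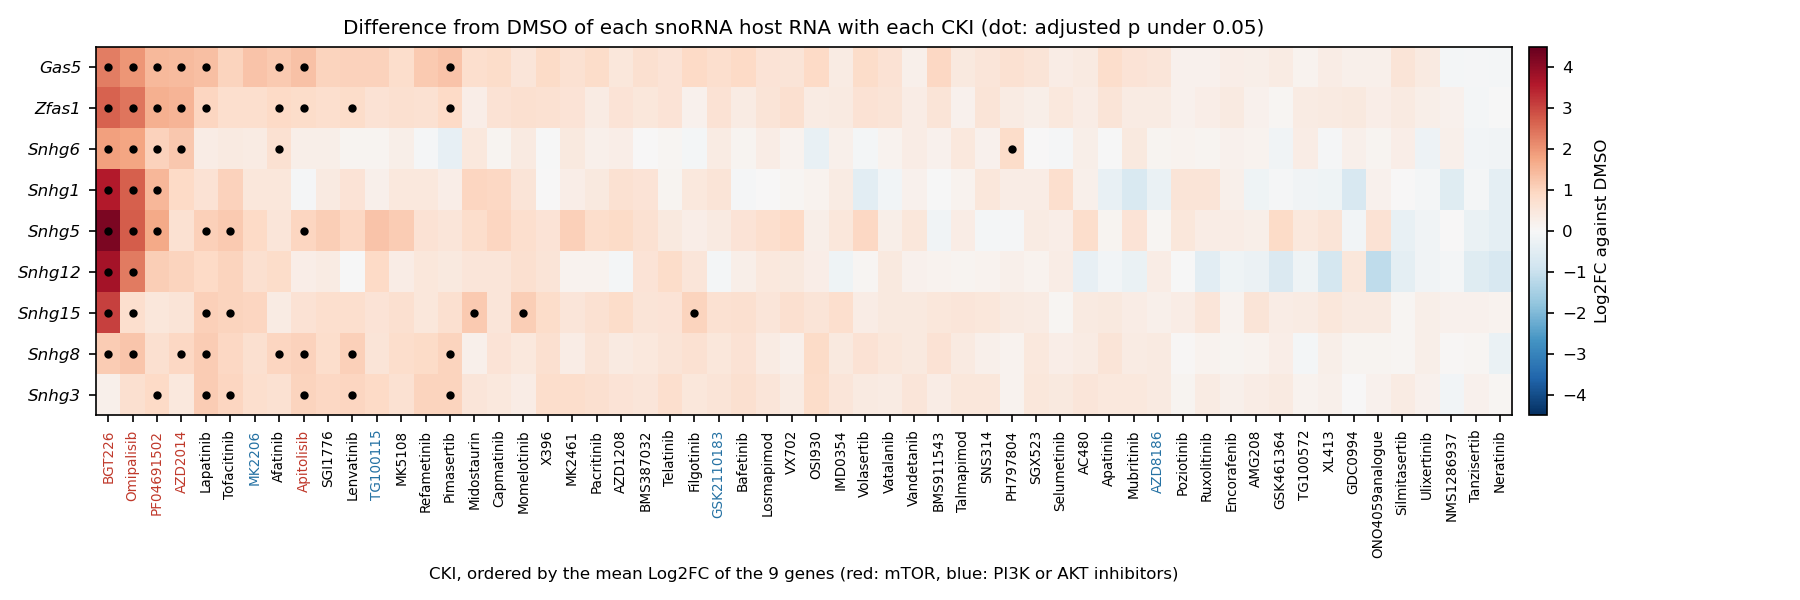
Log2FC against DMSO of the 9 host RNAs (rows) with each of the 58 CKIs (columns), ordered by the mean over the 9 genes; a dot marks an adjusted p under 0.05. The 31 dots of the mTOR inhibitors (red names) stand mostly at the left, 4 of the 5 being the first columns, and the mean is above 0 for 55 of the 58 CKIs.

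The DMSO samples stood low within the experiment. Snhg15 had its lowest mean of all 59 conditions with DMSO, and the mean Log2FC of the 9 host RNAs was above 0 with 55 of the 58 CKIs. The 53 CKIs without annotation to mTOR, averaged, were 0.55 ± 0.17 above DMSO for Snhg15 (adjusted p = 0.0499, the 1 host RNA called, beside 2.38% of all genes), and the other 8 genes were 0.15 to 0.62 above DMSO without passing. One DMSO library weighed on the counts: without DMSOs2 replicate 2, which had the lowest Gas5, Snhg5 and Snhg12 values of the 6, the 55 calls became 34 (1.3% over all genes) and the 31 calls of the mTOR inhibitors 23 (9.55%). Apitolisib, Tofacitinib and Lenvatinib then had 0 calls each, Pimasertib 1 and Afatinib 2, while BGT226 had 8, Omipalisib 7, PF04691502 5, Lapatinib 5 and AZD2014 3. Without replicate 2 of every condition the counts were 22 and 20, and without replicate 3 of every condition they were 24 and 20. For these fits the share of all genes is not given here.

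The share of mitochondrial transcripts moved with several of these results. It was 0.759% to 1.94% in the DMSO samples, and its condition means were highest with Pimasertib (3.66%), Apitolisib (2.93%), Lenvatinib (2.77%), Lapatinib (2.76%), PF04691502 (2.69%) and Tofacitinib (2.64%) among the CKIs named here. With Omipalisib the mean was 1.81%, with Afatinib 1.58%, with BGT226 1.57% and with AZD2014 1.16%, beside a DMSO mean of 1.15%. These means lay within the range of the single DMSO samples. Their highest single samples were 2.19%, 2.13% and 2.11%, above that range, and 1.54% with AZD2014, within it. Across the 54 conditions other than mTOR inhibitors, the mean log2 value of the 9 host RNAs had a Pearson r of 0.73 with the log2 mitochondrial share. The points share the normalization of 1 table, and r is given as a description. It was highest for Snhg3 (0.80), Snhg8 (0.75) and Gas5 (0.74) and was -0.12 for Snhg6.

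With the mitochondrial share and the replicate number as terms in the fit, 35 pairs were called (1.89% over all genes). BGT226 had 8 (28.6%), Omipalisib 7 (19%), AZD2014 5 (11.6%), PF04691502 4 (5.85%) and Afatinib 4 (12.3%). Apitolisib (0.0315% of all genes), Lapatinib (0.37%), Pimasertib (0.731%), Tofacitinib (0.472%) and Lenvatinib (0.0315%) had 0 each. At an unadjusted p under 0.05 in limma's test, 1, 5, 0, 2 and 0 host RNAs were higher in the same order. The percentages are for adjusted p, and the share of all genes at the unadjusted threshold is not given here. Gas5, Snhg5, Snhg6 and Zfas1 were each called with BGT226, Omipalisib, PF04691502 and AZD2014 in this fit. What sets the mitochondrial share was not tested.

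**Figure D3:**
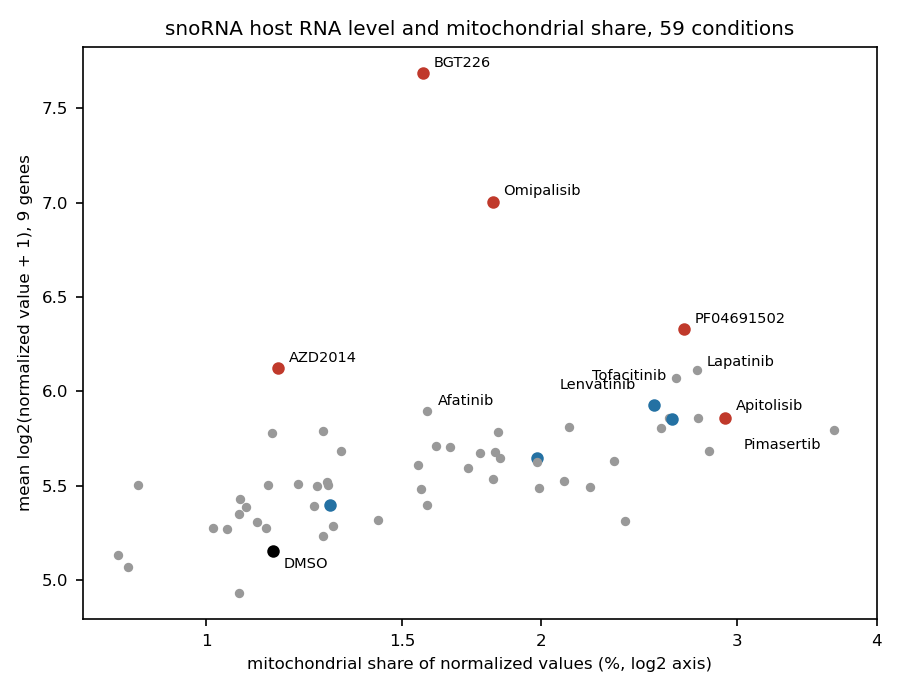
Mean log2(normalized value + 1) of the 9 host RNAs against the mitochondrial share of the normalized values (percent, log2 axis), with 1 point for each of the 59 conditions; black is DMSO, red the mTOR inhibitors, blue the PI3K or AKT inhibitors and grey the other CKIs. BGT226, Omipalisib, PF04691502 and AZD2014 lie above conditions of like mitochondrial share, whereas Apitolisib lies among them.

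To set the mTOR inhibitors against treated cells without using DMSO, the mean of the 5 CKIs was compared with the mean of the 53 others. In this contrast 8 of the 9 host RNAs were higher and 0 lower, beside 24.3% of all genes called higher, and the median Log2FC was 1.08, beside 0.04 over all genes. Without Snhg1 and Snhg12 it was 6 of 7, with a median of 1.06. The SE and p-values of this contrast measure the spread between samples within conditions, not the spread between the 5 CKIs. Snhg5 was 1.57 ± 0.13 higher (adjusted p = 3.26e-20), with 0.18 for AZD2014 and 3.73 for BGT226 when taken 1 at a time. Snhg12 (1.55 ± 0.17) and Snhg1 (1.51 ± 0.15), which passed the filter through these CKIs, were called in the fit without the filter too, with adjusted p-values of 3.18e-13 and 6.47e-15 over 30850 genes. Zfas1 was 1.33 ± 0.11 higher (adjusted p = 1.34e-20), Gas5 1.08 ± 0.15 (adjusted p = 1.42e-09) and Snhg6 1.06 ± 0.08 (adjusted p = 3.13e-25). Snhg15 and Snhg8 differed less, both by 0.57 (SE 0.11 and 0.13, adjusted p = 8.75e-06 and 0.000184). Snhg3 did not pass, at 0.16 ± 0.12 (adjusted p = 0.295).

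Taken 1 at a time against the same 53 CKIs, BGT226 had 8 host RNAs higher (24.8% of all genes), Omipalisib 7 (16.6%), PF04691502 4 (4.77%), AZD2014 2 (3.69%) and Apitolisib 0 (0%). Over the 7 genes other than Snhg1 and Snhg12, the counts were 6, 5, 3, 2 and 0 in the same order. For Apitolisib, 2 were higher and 0 lower at an unadjusted p under 0.05 in limma's test. The share of all genes at that unadjusted threshold is not given here. With the mitochondrial share and the replicate number in the fit, the mean of the 5 CKIs still had 8 host RNAs higher (24.8% of all genes), Snhg1 and Snhg12 among them. Snhg3 was at 0.02 ± 0.08 (adjusted p = 0.88). The call of Snhg15 rested on BGT226, since the remaining 4 CKIs gave 0.08 (adjusted p = 0.645). Without BGT226, Gas5, Snhg5, Snhg6, Snhg8 and Zfas1 stayed called, with Log2FC from 0.54 (Snhg8) to 1.12 (Zfas1) and Snhg5 at 1.02. Snhg12 (1.03) and Snhg1 (1.05) were called too, which is given as a description. The filter still used all samples, and both passed it through the mTOR inhibitors. For this refit the share of all genes is not given here. Against the 48 CKIs annotated to none of PI3K, AKT or mTOR the number was again 8.

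**Figure D4:**
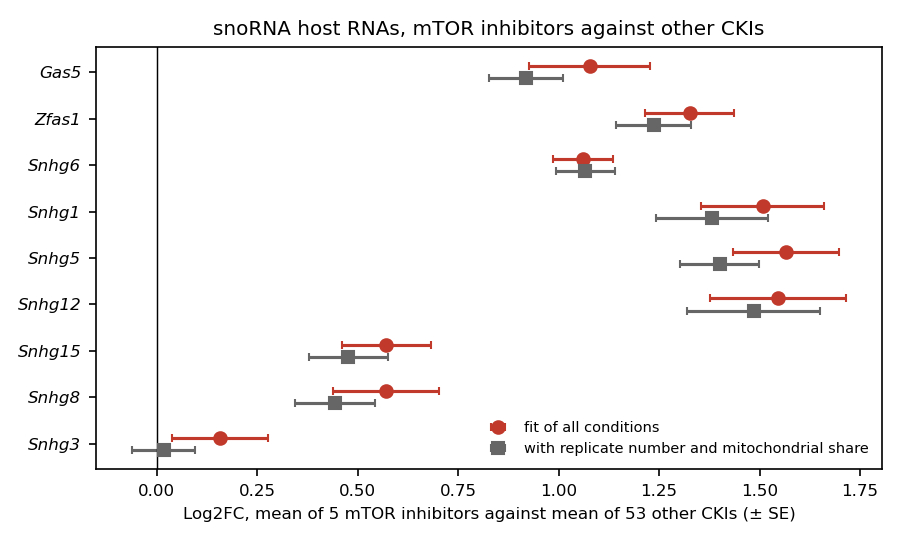
Log2FC ± SE of each host RNA between the mean of the 5 mTOR inhibitors and the mean of the 53 other CKIs, in the fit of all conditions (circles) and with the replicate number and mitochondrial share as further terms (squares). Snhg5, Snhg12 and Snhg1 lie near 1.5, and Snhg3 lies near 0.

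The 9 host RNAs varied together to different degrees. Over the mean log2 values of the 59 conditions, Pearson's r was above 0 in all 36 pairs, from 0.05 (Snhg3 and Snhg6) to 0.89 (Gas5 and Snhg8), with a median of 0.70. Without the mTOR inhibitors the median was 0.54 over 54 conditions. Gas5 and Snhg8 (0.88), Snhg3 and Snhg8 (0.86) and Gas5 and Snhg3 (0.84) remained close in those conditions. Snhg6 did not: its r with the other genes lay between -0.03 (Snhg8) and 0.24, while with the mTOR inhibitors included it reached 0.80 (Zfas1). These conditions share 1 normalization, and the low values of Snhg1 and Snhg12 carry an unknown counting error.

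**Figure D5:**
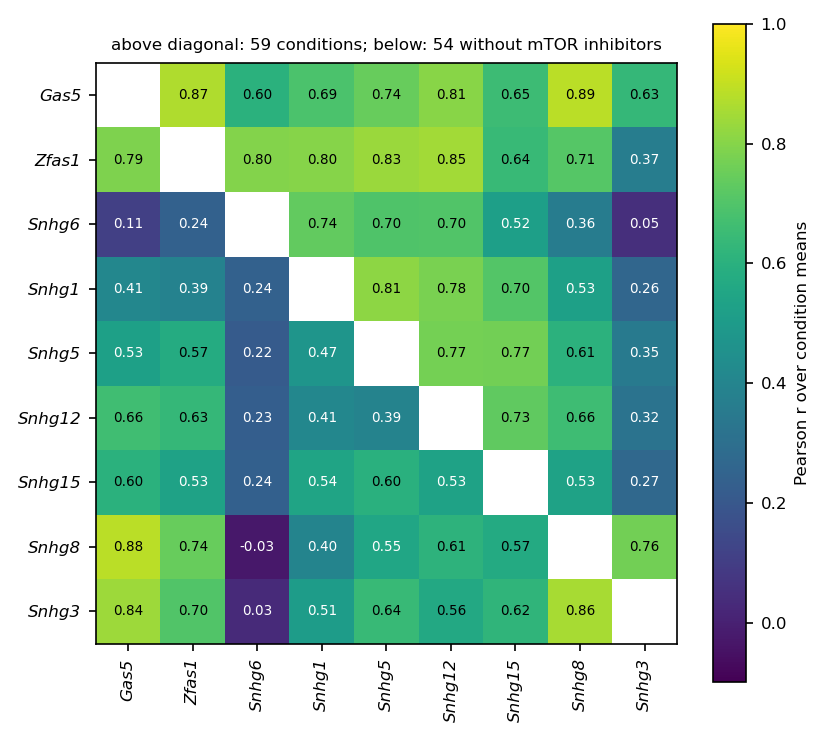
Pearson's r between the mean log2 values of each pair of host RNAs, over all 59 conditions above the diagonal and over the 54 conditions without the mTOR inhibitors below it. The row and column of Snhg6 hold the lowest values below the diagonal, from -0.03 to 0.24.

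The genes whose pattern over the 59 conditions was most like the mean of the 9 host RNAs were Aph1c (r = 0.92), Gm2999 (0.92), 2410006H16Rik (0.92), Eif4a2 (0.91) and Gadd45b (0.91). Without the mTOR inhibitors their r over 54 conditions was 0.77, 0.78, 0.73, 0.75 and 0.72. Eif4a2, a translation initiation helicase, itself hosts snoRNAs, and Gadd45b encodes a stress-response protein.

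Of the 12 other noncoding hosts in the table, which are 10 further Snhg genes, Epb41l4aos and Dancr, 6 passed the filter. In the contrast of the 5 mTOR inhibitors with the other CKIs, 4 of these were higher and 1 lower, beside 24.3% and 17.2% of all genes, with a median Log2FC of 0.71 beside 1.08 for the 9 host RNAs. Snhg16 and Snhg17, like Snhg15, were far higher with BGT226 than with the other mTOR inhibitors. With BGT226 their means were 178 and 221, against 16.2 and 13.5 with DMSO (Log2FC 3.40 ± 0.29 and 4.03 ± 0.37, adjusted p = 1.74e-19 and 1.49e-17). With Omipalisib their means were 34.3 and 23.3. Snhg4 and Epb41l4aos were higher in the contrast by 0.50 and 1.07, Snhg20 was lower by 0.39 (Log2FC -0.39 ± 0.13, adjusted p = 0.00923) and Dancr did not pass (-0.25, adjusted p = 0.235).

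Coding hosts of snoRNAs, mostly ribosomal protein and translation factor genes with TOP tracts, had smaller differences. Of the 32 found, 29 were tested, of which 20 were higher and 2 lower in the contrast, beside 24.3% and 17.2% of all genes. Their median Log2FC was 0.19. Rpl3 was 0.37 ± 0.06 higher (adjusted p = 7.15e-08), whereas Rabggtb, which encodes a prenyltransferase subunit, was 1.08 ± 0.11 higher (adjusted p = 6.18e-15), and Eif4a2 was 0.74 ± 0.06 higher (adjusted p = 6.6e-21). Tomm20 (-0.49) and Nop56 (-0.29) were lower. Against DMSO, 22 of the 29 were higher with Omipalisib, 19 each with AZD2014 and PF04691502, 15 with BGT226 and 12 with Apitolisib. In the same order, 17.5%, 6.06%, 8.86%, 24.1% and 12.7% of all genes were called higher. With each of these CKIs 1 coding host was lower, except with Apitolisib, with 0. The medians of the 29 were 0.33 to 0.49, beside 0.83 to 2.64 for the 9 host RNAs and 0.94 to 2.30 for the 7 without Snhg1 and Snhg12. The counts of several ribosomal protein genes are uncertain, because processed copies share their reads.

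Of the 10 NMD factors, 5 were higher and 0 lower in the contrast, beside 24.3% and 17.2% of all genes. Their median Log2FC was 0.17. Smg9 (0.73 ± 0.05), Smg6 (0.42 ± 0.07), Smg1 (0.35 ± 0.08), Upf3b (0.34 ± 0.09) and Smg5 (0.26 ± 0.07) passed, and the helicase Upf1 did not (-0.14, adjusted p = 0.29). With BGT226 8 of the 10 were higher than with DMSO, with Omipalisib 7, with PF04691502 and AZD2014 1 each and with Apitolisib 0. Of all genes, 24.1%, 17.5%, 8.86%, 6.06% and 12.7% were called higher with these CKIs in the same order, so the counts of 1 were near the share of all genes. AZD2014 lowered 3 (13.5% of all genes), PF04691502 1 (4.22%) and Apitolisib 1 (3.2%). Of 5 mRNAs known to be lowered by NMD, 4 were higher in the contrast and 0 lower, beside 24.3% and 17.2% of all genes. These were Gadd45a (1.65 ± 0.10), Gadd45b (1.16 ± 0.07), Atf4 (0.69 ± 0.04) and Upp1 (0.55 ± 0.13). Tbl2 did not pass (-0.03, adjusted p = 0.85). Atf4, a transcription factor of the stress response, had a mean of 10084 with BGT226 and 6054 with Omipalisib against 1594 with DMSO, but 1605 with PF04691502 and 1116 with AZD2014. Gas5, Zfas1, Snhg6 and Snhg8 were higher with AZD2014 than with DMSO. Of the 5 mRNAs, 2 were higher there and 1 lower, beside 6.06% and 13.5% of all genes. Gadd45a (Log2FC 0.84 ± 0.26, adjusted p = 0.0128) and Gadd45b (0.61 ± 0.18, adjusted p = 0.00871) were higher. Atf4 was lower (-0.51 ± 0.09, adjusted p = 5.48e-06), and Tbl2 and Upp1 did not pass.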

How the data were processed

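PolyA RNA of 180 samples was sequenced after SMART-seq2 amplification and Tn5 tagmentation. Per the labels and methods, the authors aligned reads to mm10 with TopHat2 2.1.1, counted them on exons of curated RefSeq genes (bedtools 2.29.2 and R 3.6.2 are in the submitters' processing notes), and scaled samples on invariant genes. They deposited the scaled, rounded values, a score with no fixed unit called normalized values here. They sum to between 9477340 and 12273349 per sample, which is not the number of reads. The depth is unknown, so the counting error of low genes such as Snhg1 and Snhg12 is unknown too. Whether counting used the strand is not given in the sources used here.

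All columns were matched to samples by name (0 unmatched, 0 identical). limma 3.58.1 (R 4.3.3) was fitted to log2(value + 1) with a variance trend over 59 conditions, for the 12714 genes with a mean of at least 10, and the 6 DMSO samples formed 1 reference, without a replicate block. Fold changes on this scale understate the change of low genes. P-values were adjusted by the Benjamini-Hochberg method over all tested genes, with a threshold of 0.05. In simulated independent samples, the contrast of BGT226 with DMSO recovered 71.5% of 200 genes changed by a Log2FC of 1. With a Log2FC of 2 it recovered 98.5%, and 7 and 10 unchanged genes were called in the same order. Their counting error was set from the normalized values, although the depth is unknown, and no deviation was shared by replicate number. Classes of CKIs come from the target annotation in the study's compound list. P-values measure the spread between the samples within conditions, described as independent biological replicates, and not the spread between CKIs of a class.

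All 9 host genes are named, with fixed lists of related genes, the CKIs annotated to mTOR, PI3K or AKT, every CKI with at least 3 host genes called, the conditions with the highest and lowest mean of each gene, and the 5 genes with the most similar pattern. The members and lists were chosen with earlier results of these data known. The CKIs with 1 host gene called are outside this rule and were named after their values were seen. Alternatives were pseudocounts, filters, rescaling, single DMSO sets, no trend, only the groups compared, a replicate block without and with the mitochondrial share, and left-out samples. The deposited table holds no comparison columns.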

Additional observations from a re-analysis of the deposited data

Results flagged for a closer look

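Gas5 had a normalized value of 173 in DMSOs2 replicate 1, far from the other 5 DMSO samples, whose highest value was 91. The gap was 0.667 of the group's range, above Dixon's 95% critical value of 0.625 for 6 samples. The same library was the highest DMSO sample for Snhg3 (110), Snhg8 (207), Snhg15 (46) and Zfas1 (117), whose gaps were below the critical value. One of 9 genes was marked in this way, and chance marks about 1 group in 20. Without this library, 76 pairs of a host gene and a CKI were called higher in place of 55. Over all genes the share of pairs called higher rose too, from 2.52% to 3.94%.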

How the results depend on the processing

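The 55 calls of all CKIs became 34 with DMSOs1 alone as the reference, 29 with DMSOs2 alone, 34 with only the groups compared and 35 with the replicate block and mitochondrial share. The share over all genes was 1.89% in the last of these fits and is not given here for the others. Leaving out single samples, or 1 replicate number throughout, gave 22 to 76 calls for all CKIs, 20 to 32 for the mTOR inhibitors and 8 for these against the other CKIs. With a mean of at least 50, the last number was 5, since Snhg1, Snhg5 and Snhg12 were then not tested. The share of all pairs of a gene and a CKI called higher also moved, being 1.3% without DMSOs2 replicate 2 and 3.94% without DMSOs2 replicate 1. The replicate block alone gave 78, 33 and 8 calls (4.6%, 19.1% and 27.7% over all genes), with 3 host RNAs for TG100115, 4 for MK2206 and 40 CKIs without a call in place of 44. No source used here says what the replicate number marks, and the block was kept as an alternative because the deviations of all 3 pairs with DMSO correlated over 0.1 for 34 of 58 CKIs, not for all. The median correlation of a sample with the others of its number was 0.506. Deviations sum to 0 within a condition, so the correlation with other numbers was the same with the opposite sign (median -0.506). That 168 of 180 correlated better with their own number is therefore no second comparison. The correlation is a hint from the data, not from the design. Without the filter on low values, Apitolisib had 2 host RNAs called (3.43% of all genes), Afatinib 2 (3.23%) and Lenvatinib 0 (2.15%). No host RNA was called lower in these counts. Of the pairs not called, 2 turned direction when samples were left out: Snhg1 with Apitolisib ranged from -0.50 to 0.33, with 0.19, 0.0024 and 0.14 among the values above 0, and Snhg3 with BGT226 from -0.13 to 0.59. Pyrimidine runs of at least 7 bases were found in 1 of 8 genes (25.6% of all genes), and runs within 10 bases of the start in 4 (28.8%). For the 31 pairs called with the mTOR inhibitors against DMSO, 963 values under the alternatives kept their call and 113 lost it. For the 8 calls against other CKIs, 260 kept and 1 lost it. The 24 calls with other CKIs against DMSO are not in this tally.

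The depth is unknown, so no interval for counting error can be given. It bears most on Snhg1 and Snhg12, whose DMSO medians were 7.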
